A study of Mus musculus with 6 samples.

Results

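Paired receptors are sets of closely related cell surface proteins in which 1 member passes an inhibitory signal and another an activating signal. The genes described here are 3 inhibitory receptors, 3 activating receptors that signal through the adaptor Dap12, and 2 ligands. The inhibitory receptors are Cd200r1, Sirpa and Pilra, the Dap12-pairing receptors are Cd200r4, Sirpb1a and Pilrb1, and the ligands are Cd200, which Cd200r1 binds, and Cd47, which Sirpa binds. Members were chosen by name. Every probe set annotated with exactly 1 of these 8 gene symbols was taken, which gave 15 of 45101 probe sets, with all 8 genes represented.

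Myeloid cells use these pairs to set how readily they respond. Cd200 and Cd47 on neighbouring cells hold macrophages and microglia, the macrophages of the brain, in check: Cd200r1 recruits the adaptors Dok1 and Dok2 and the Ras inhibitor Rasa1, while Sirpa and Pilra carry ITIM motifs that recruit the phosphatases Ptpn6 and Ptpn11. The activating partners have short cytoplasmic tails and depend on Dap12, whose ITAM motif recruits the kinase Syk. Deficiency of Dap12 therefore removes the adaptor of the activating receptors and the comparison asks whether transcripts of the receptors and ligands are altered as well.

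RNA of mouse primary microglial cultures was hybridised to 6 single-colour oligonucleotide arrays, and the RNA on each array is called 1 culture here. The titles carry a pair of numbers on 4 arrays and 1 number on 2. What these numbers mean, and whether RNA of several cultures was pooled, is not stated. The groups were 3 cultures labelled Dap12-ko, called Dap12-deficient here, and 3 labelled wild type. The labels name no treatment. The deficient allele, the strain, the age of the animals and whether a culture came from its own animals are not stated in the labels. The p-values therefore measure only the spread between these cultures, which may be technical. The signal is linear and each array had been scaled to the same trimmed mean, so a signal has no absolute unit and is not compared between probe sets.

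Tyrobp, the gene of Dap12, had signals of 5396 to 7271 in the wild-type cultures against 96.2 to 125 in the Dap12-deficient ones, so all 6 arrays matched their labels. Across 27022 probe sets bright enough to test, 2 passed at a Benjamini-Hochberg adjusted p under 0.05 in limma, which is 0.0074%. Microglia markers were present on every array, with summed signals over 13 measured genes of 21669 to 30007 in wild-type against 17387 to 25927 in Dap12-deficient cultures, and 12 of the 13 had a lower mean log2 signal in the latter. Transcripts of other cells were present too. The sums of 9 oligodendrocyte markers were 5664 to 8934 in wild-type against 1570.5 to 6678 in Dap12-deficient cultures, those of 9 astrocyte markers 564 to 988 against 527 to 1472, and those of 11 neuron markers 583 to 711 against 456 to 579, without overlap. Sums of lymphocyte markers were 171 to 233 against 80.7 to 116, also without overlap, and those of endothelial (64.7 to 99.2 against 60.4 to 93.1) and fibroblast markers (113 to 212 against 115 to 155) overlapped. Most of the lymphocyte sum was Ighm, at 154 to 214 in wild-type against 48.9 to 79.2 in Dap12-deficient cultures. The dim Cd3e, Cd3g and Cd79a had higher means in the latter, and Cd79b had 10.7 against 10.4. No marker was listed at 0 on any array. The mean log2 signal of the Y-linked genes Eif2s3y, Kdm5d and Uty was 7.10 to 7.36 in wild-type against 5.31 to 6.19 in Dap12-deficient cultures. Refits with a term for the Y-linked or for oligodendrocyte genes are given below. Beyond these refits, the part of these differences in the values that follow was not tested. In bulk RNA fewer cells of a type and less RNA per cell cannot be told apart.

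None of the paired receptors or ligands changed past the threshold. Differences are of log2(signal + 16), Dap12-deficient minus wild-type, and probe sets were tested where their mean signal was at or above the 40th percentile, 8.51. Of the 15 probe sets, 14 were bright enough to test, covering all 8 genes, and 0 passed, with adjusted p between 0.421 and 0.993 in limma. At an unadjusted p under 0.05 there was 1, a dim probe set of Cd47, against 10.7% of all tested probe sets (7.05% higher and 3.61% lower). The same probe set was the only 1 of the 14 whose arrays did not overlap between the groups, against 16.5% of all tested probe sets (9.6% with Dap12-deficient arrays above and 6.89% below). Of the 14, 6 were higher and 8 lower in Dap12-deficient cultures, with a median log2 difference of -0.081 against 0.025 over all tested probe sets. The median size of the difference without regard to sign was 0.18, against 0.20 over all tested probe sets. For 11 of the 14 the 95% interval lay within 1 either way on the log2 scale. The 3 others, a pair of Cd47 probe sets and 1 of Sirpa, had intervals that reached just below -1 and stayed under 1 on the upper side. The data do not show that the differences are 0. The intervals hold for a fit without a covariate: with the mean of the Y-linked genes as a term, the log2 difference was -2.12 (SE 0.70) for the Cd47 probe set 1419554_at, -1.65 (SE 0.71) for Cd200r4, -1.46 (SE 0.59) for the Cd200r1 probe set 1422191_at and 1.16 (SE 0.66) for Pilra, and again 0 members passed. The Y-linked mean did not overlap between the groups (7.10 to 7.36 against 5.31 to 6.19). With these 6 arrays its part and that of Dap12 deficiency cannot be told apart, so these values are not estimates freed of sex.

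**Figure D1:**
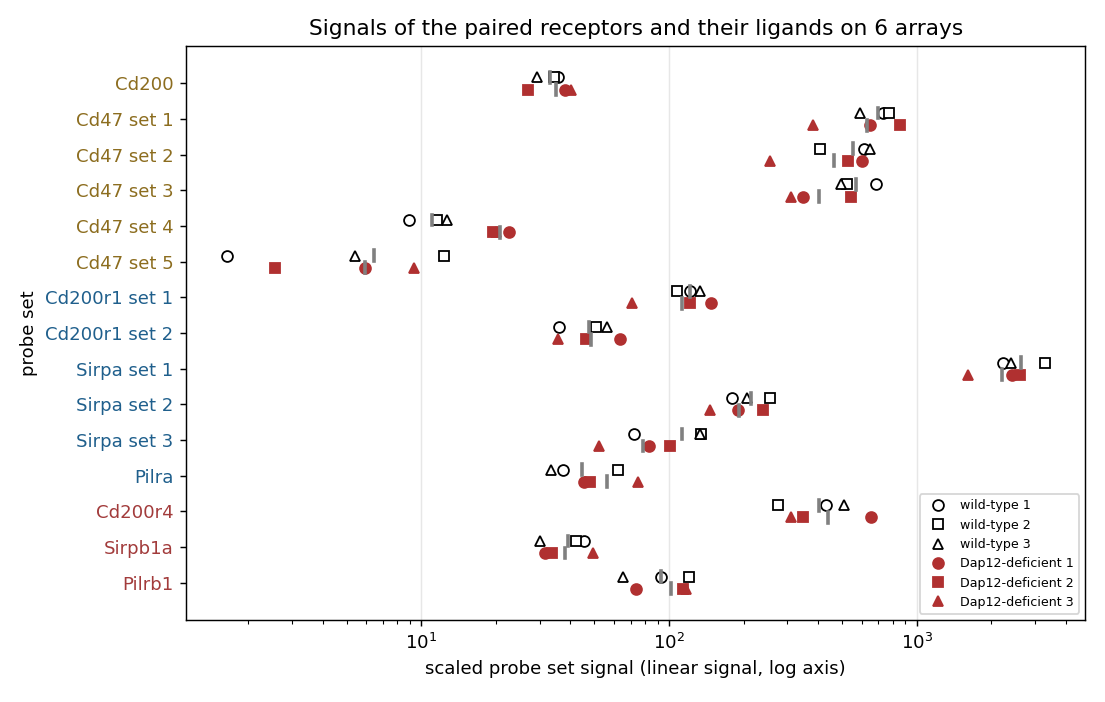
Signal of each probe set (linear scaled signal on a log axis) on 3 wild-type arrays (open symbols) and 3 Dap12-deficient arrays (filled symbols), with group means as grey bars, and gene names coloured by role (brown ligands, blue inhibitory, red Dap12-pairing). Probe sets of a gene are numbered from the brightest, and the groups overlap for all but Cd47 set 4, where 19.5 to 22.6 lies above 8.96 to 12.7.

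Among the ligands, Cd200 encodes a membrane glycoprotein known from neurons, endothelium and some immune cells. Its probe set, 1448788_at, gave 35.5, 34.4 and 29.2 in wild type against 38.0, 27.0 and 40.3 in Dap12 deficiency. Here and throughout, the values of a group follow the order of its arrays 1, 2 and 3. Both the highest and the lowest of the 6 values were Dap12-deficient. The means were 33.0 ± 3.39 (SD, n = 3) and 35.1 ± 7.12 (SD, n = 3), a log2 difference of 0.052 (95% interval -0.37 to 0.48, limma adjusted p = 0.944). Summed neuron markers were lower on each Dap12-deficient array, as given above, while the Cd200 signals overlapped.

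Cd47, an integrin-associated protein present on most cells and known as a signal against phagocytosis, had 5 probe sets. The brightest, 1449507_a_at, gave 733, 773 and 588 in wild type against 648, 853 and 380.2 in Dap12 deficiency. The next, 1419554_at, gave 611, 406 and 644 against 602, 529 and 255. The third, 1428187_at, gave 685, 523 and 494 against 348, 544 and 312. In all 3 the lowest of the 6 signals was on Dap12-deficient array 3, while at least 1 other Dap12-deficient array lay within or above the wild-type range. Log2 differences were -0.21 (SE 0.28), -0.31 (SE 0.31) and -0.51 (SE 0.24), with limma adjusted p of 0.810, 0.747 and 0.493. Without Dap12-deficient replicate 3 the first and second turned to 0.099 and 0.054.

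A dim Cd47 probe set, 1430997_at, went the other way, with 8.96, 11.6 and 12.7 in wild type against 22.6, 19.5 and 19.9 in Dap12 deficiency. All 3 Dap12-deficient signals were above all 3 wild-type signals. The means were 11.1 ± 1.91 (SD, n = 3) and 20.7 ± 1.68 (SD, n = 3), with a log2 difference of 0.44 (SE 0.18, unadjusted p = 0.0296, adjusted p = 0.421 in limma). Median signals of whole arrays were also higher in Dap12-deficient cultures, at 14.5 to 16.4 against 11.9 to 14.0, a range that reaches the signals of this probe set, and with quantile normalization the log2 difference was 0.33 (adjusted p = 0.568). With pseudocounts of 1 and 64 it was 0.86 and 0.17. Which part of the transcript it reads was not examined. The fifth probe set, 1459908_at, was too dim to test, with 1.64 to 12.3 in wild-type against 2.56 to 9.31 in Dap12-deficient cultures. Cd47 probe sets thus did not share a direction, and none passed.

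**Figure D2:**
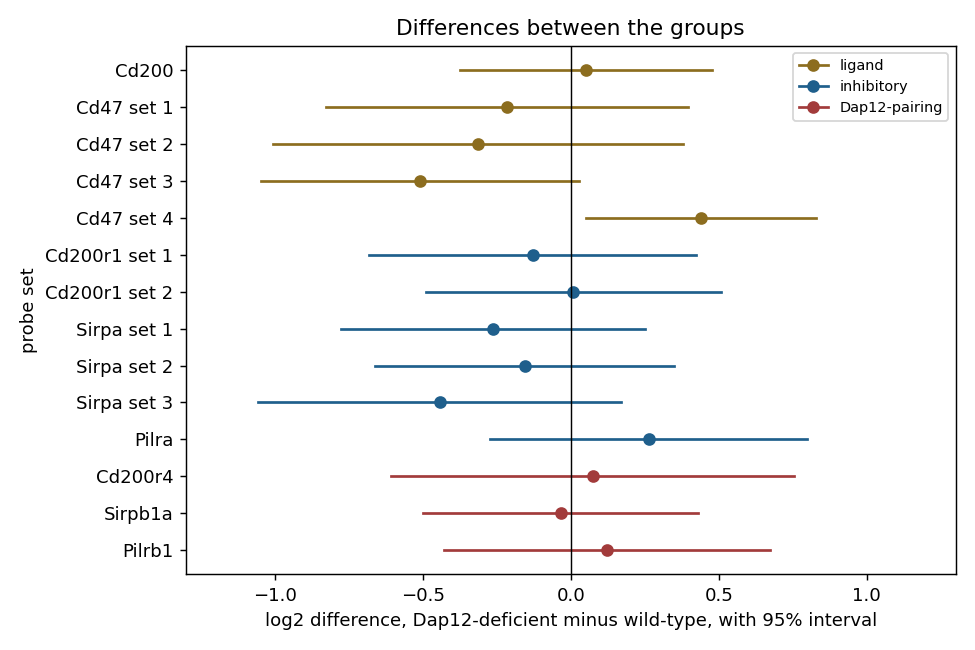
Log2 difference between Dap12-deficient and wild-type cultures (x axis, dots) with its 95% interval from limma (lines) for the 14 tested probe sets, coloured by role. The intervals of 13 include 0, and that of Cd47 set 4 runs from 0.053 to 0.83.

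Of the inhibitory receptors, Sirpa, the receptor of Cd47, had 3 probe sets. The brightest, 1416985_at, gave 2234, 3279 and 2401 in wild type against 2429, 2609 and 1602 in Dap12 deficiency. Wild-type array 2 was the highest and Dap12-deficient array 3 the lowest, and Dap12-deficient arrays 1 and 2 lay between wild-type arrays 2 and 3. The means were 2638 ± 562 (SD, n = 3) and 2214 ± 537 (SD, n = 3), a log2 difference of -0.26 (95% interval -0.77 to 0.25, limma adjusted p = 0.708). The probe set 1448534_at gave 180, 256 and 206 against 191, 240.0 and 146, and 1416986_a_at gave 71.9, 134 and 133 against 83.0, 101 and 51.9. Both repeated the order at the ends, with wild-type array 2 highest and Dap12-deficient array 3 lowest. Their log2 differences were -0.16 (SE 0.23) and -0.44 (SE 0.28), with limma adjusted p of 0.837 and 0.600. All 3 probe sets of Sirpa were lower on average and none passed. Without Dap12-deficient replicate 3 the 3 log2 differences were -0.047, 0.014 and -0.22. That array had the lowest sums of microglia (17387), neuron (456) and oligodendrocyte markers (1570.5) and the highest sum of astrocyte markers (1472). The part of these sums was not tested.

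Cd200r1, the inhibitory receptor of Cd200, was read by a pair of probe sets. On 1422191_at the signals were 122, 108 and 134 in wild-type against 148, 121 and 70.8 in Dap12-deficient cultures. Both ends of the range were again Dap12-deficient, array 1 highest and array 3 lowest. The means were 121 ± 13.1 (SD, n = 3) and 113 ± 39.2 (SD, n = 3), a log2 difference of -0.13 (95% interval -0.68 to 0.42, limma adjusted p = 0.882), which was 0.13 without Dap12-deficient replicate 3. On 1439703_at the signals were 35.9, 50.8 and 56.4 against 63.4, 46.3 and 35.7, with the same arrays at the ends. Its log2 difference was 0.0090 (SE 0.23, limma adjusted p = 0.993). The spread among Dap12-deficient cultures was wider than that among wild-type cultures for both probe sets, 2.09-fold against 1.24-fold from lowest to highest on the first and 1.78-fold against 1.57-fold on the second.

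Pilra, an inhibitory receptor that binds sialylated glycoproteins, gave 37.4, 62.3 and 33.4 in wild type against 45.5, 47.9 and 74.9 in Dap12 deficiency (1427327_at). Dap12-deficient array 3, the lowest for Sirpa and Cd200r1, was the highest here. The means were 44.4 ± 15.6 (SD, n = 3) and 56.1 ± 16.3 (SD, n = 3), and the log2 difference was 0.26 (95% interval -0.27 to 0.80, limma adjusted p = 0.725).

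Of the Dap12-pairing receptors, Cd200r4, an activating relative of Cd200r1, gave 430.4, 275 and 509 in wild type against 655, 348 and 310 in Dap12 deficiency (1435313_at). The highest signal was on Dap12-deficient array 1 and the lowest on wild-type array 2. The means were 405 ± 119 (SD, n = 3) and 438 ± 189 (SD, n = 3), a log2 difference of 0.075 (95% interval -0.61 to 0.76, limma adjusted p = 0.950). Without Dap12-deficient replicate 1 it was -0.25, and without wild-type replicate 2 it was -0.17.

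Sirpb1a, the activating relative of Sirpa, gave 45.3, 42.1 and 30.1 in wild type against 31.4, 33.6 and 49.1 in Dap12 deficiency (1458683_at). The lowest signal was wild-type and the highest Dap12-deficient. The log2 difference was -0.033 (95% interval -0.50 to 0.43, limma adjusted p = 0.967), from means of 39.2 ± 8.03 (SD, n = 3) and 38.0 ± 9.67 (SD, n = 3). Pilrb1, the activating relative of Pilra, gave 92.8, 120.1 and 65.0 in wild type against 73.7, 114 and 117 in Dap12 deficiency (1422041_at). Here the lowest and the highest signals were both wild-type. The log2 difference was 0.12 (95% interval -0.43 to 0.67, limma adjusted p = 0.886), from means of 92.6 ± 27.5 (SD, n = 3) and 102 ± 24.2 (SD, n = 3). None of the 3 receptors that depend on Dap12 at the cell surface thus changed at the transcript level past the threshold in cultures whose Tyrobp signal was 96.2 to 125.

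The loci of the pairs differ in layout, in the gene order of assembly GRCm38.p6. Pilra and Pilrb1 are neighbours on chromosome 5 with 0 protein-coding genes between them, and Cd200r1 and Cd200r4 are neighbours on chromosome 16. Sirpa lies on chromosome 2 and Sirpb1a on chromosome 3. Cd200 lies on chromosome 16 too, with 7 protein-coding genes between it and Cd200r1, among them Cd200r4 and its relatives Cd200r2 and Cd200r3. The start regions of Pilra and Pilrb1 are shown because their near identity is a feature of this pair that the choice of members did not use. Each is the RefSeq window from 250 bases before to 50 after the gene's start in GRCm38.p6, at chr5:137836229-137836528 for Pilra and chr5:137858000-137858299 for Pilrb1, both on the minus strand and written 5′ to 3′, with capitals at the bases that differ within the aligned stretch.
Pilra: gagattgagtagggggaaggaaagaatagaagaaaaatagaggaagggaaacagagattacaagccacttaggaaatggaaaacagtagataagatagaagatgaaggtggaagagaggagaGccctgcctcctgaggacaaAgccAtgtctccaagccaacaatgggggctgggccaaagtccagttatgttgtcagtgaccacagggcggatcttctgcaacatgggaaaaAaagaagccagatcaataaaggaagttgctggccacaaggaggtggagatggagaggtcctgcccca
Pilrb1: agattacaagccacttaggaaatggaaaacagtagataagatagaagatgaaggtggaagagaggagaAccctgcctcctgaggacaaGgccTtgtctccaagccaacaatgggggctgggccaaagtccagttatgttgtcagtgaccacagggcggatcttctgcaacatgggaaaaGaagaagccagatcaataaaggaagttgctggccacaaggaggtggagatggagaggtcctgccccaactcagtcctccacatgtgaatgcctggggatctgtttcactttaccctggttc
Bases 55 to 300 of the Pilra window aligned without a gap to bases 1 to 246 of the Pilrb1 window, with 242 of 246 bases identical (98.4%) and 4 different. Sirpa and Cd200r1 had no window, so the other receptor pairs could not be aligned in this way. Among the remaining pairs of members with a window, none of them an inhibitory receptor with its Dap12-pairing partner, the longest local alignment was 15 bases. The motif GAGGAA, searched on both strands, occurred once in the Pilra window, before the aligned stretch, once in that of Cd200, and in none of the windows of Pilrb1, Cd200r4, Sirpb1a and Cd47, while 28.3% of 32851 windows of this length hold it.

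Array by array, members of the same class did not all deviate in the same direction. On Dap12-deficient array 3 the brightest probe sets of Cd47, Sirpa and Cd200r1 deviated from their wild-type means by -0.84, -0.69 and -0.65 on the log2 scale, and that of Cd200r4 by -0.33. On the same array Pilra deviated by 0.62, Pilrb1 by 0.33, Sirpb1a by 0.25 and Cd200 by 0.20. Of the 14 tested probe sets, 8 had their lowest signal on this array, all from 3 genes (3 of Cd47, 3 of Sirpa and 2 of Cd200r1), and 3 had their highest, those of Cd200, Pilra and Sirpb1a. Over all tested probe sets, 19.5% had their lowest and 19.5% their highest signal on this array. On Dap12-deficient array 1, Cd200r4 deviated by 0.72 and Cd200r1 by 0.27, while Pilrb1 and Sirpb1a deviated by -0.24 and -0.21. Dap12-deficient array 2 lay closer to wild-type, with deviations from -0.19 (Cd200) to 0.29 (Cd47 and Pilrb1). The log2 range was wider among Dap12-deficient than among wild-type cultures for 11 of the 14 probe sets, against 62.0% of all tested probe sets.

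**Figure D3:**
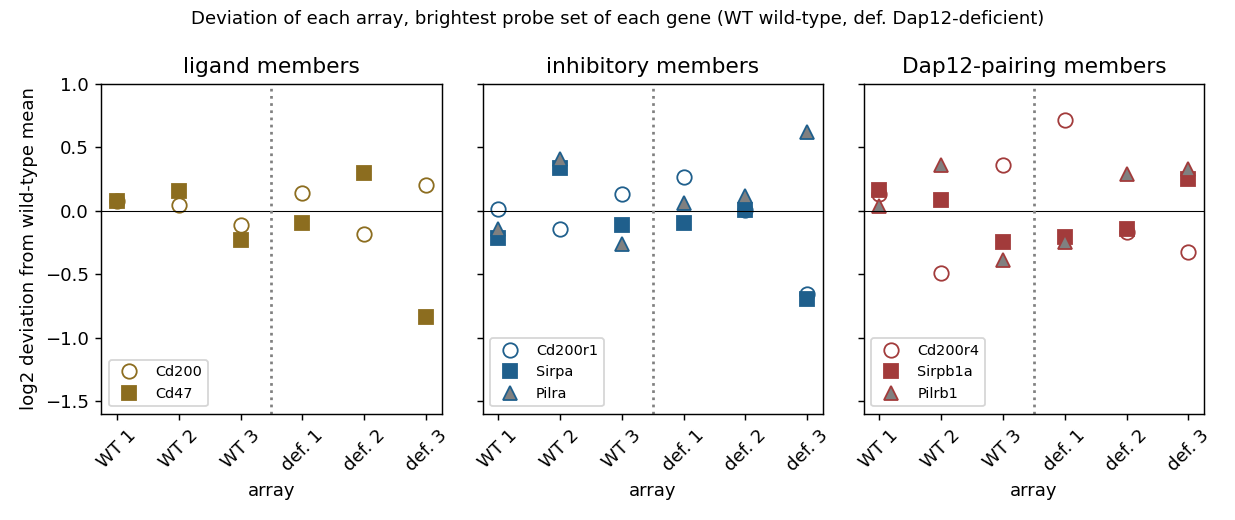
Log2 deviation from the wild-type mean (y axis) on each array (x axis) for the brightest probe set of each gene, in panels for ligands, inhibitory and Dap12-pairing receptors. Dap12-deficient array 3 is low for Cd47 (-0.84), Sirpa (-0.69) and Cd200r1 (-0.65) and high for Pilra (0.62).

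The closeness of patterns was measured as the root mean square difference of log2 signals over the 6 arrays after each gene was centred on its own mean, over the brightest tested probe set of each gene. Between partners it was 0.20 for Pilra and Pilrb1, 0.20 for Cd47 and Sirpa, and 0.28 for Cd200r1 and Cd200r4. It was 0.37 for Cd200 and Cd200r1 and 0.42 for Sirpa and Sirpb1a. The smallest distance between members, 0.15, was that of Cd200 and Sirpb1a, which are not partners. Other members that are not partners were also closer than Cd200r1 and Cd200r4. These were Pilrb1 and Sirpb1a (0.21), Pilra and Sirpb1a (0.24), Pilra and Cd200 (0.26) and Sirpa and Cd200r1 (0.27). The largest distance was 0.69 for Cd200r4 and Pilrb1. A small value also arises where both genes hardly vary: the root mean square spread of Cd200 about its own mean was 0.14, against 0.41 for Cd200r4. Among 12874 other genes, the closest to each member were Gsx1 and Col4a2 for Cd200, Adi1 and Ncoa3 for Cd47, Pus10 and Gng12 for Cd200r1, Vwa5a and Uhrf1bp1 for Sirpa, and Gm14137 and Pla2g1b for Pilra. For the Dap12-pairing receptors they were Slc36a4 and Selenot for Cd200r4, Tlr9 and Poglut3 for Sirpb1a, and Pdcd6ip and Orly for Pilrb1. Their distances ran from 0.042 for Tlr9 to 0.12 for Selenot. With 6 arrays such closeness is a description only, and whether probe sets of partners read only their own gene was not examined.

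The 3 pairs were then compared within arrays, as the log2 signal of the inhibitory minus that of the Dap12-pairing member, set against its wild-type mean, which asks whether the balance of a pair differed. For Cd200r1 and Cd200r4 the values were -0.11, 0.34 and -0.23 in wild type against -0.45, 0.17 and -0.33 in Dap12 deficiency. For Sirpa and Sirpb1a they were -0.38, 0.25 and 0.13 against 0.11, 0.15 and -0.94, so that Dap12-deficient array 3 lay below the rest. For Pilra and Pilrb1 they were -0.18, 0.048 and 0.13 against 0.30, -0.17 and 0.29. The groups overlapped in all 3 pairs. The mean changes were -0.20, -0.23 and 0.14, and the two-sided exact permutation p over 6 arrays was 0.5, 0.6 and 0.5 (0.6 for each after adjustment over the 3 pairs), where 0.1 is the smallest that 3 against 3 arrays can give. Without Dap12-deficient replicate 3 the change of the Sirpa pair turned to 0.13. A difference in balance was not detectable with these 6 arrays. Whether each probe set reads its own gene only was not examined, so members of a pair may not be independent measures.

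**Figure D4:**
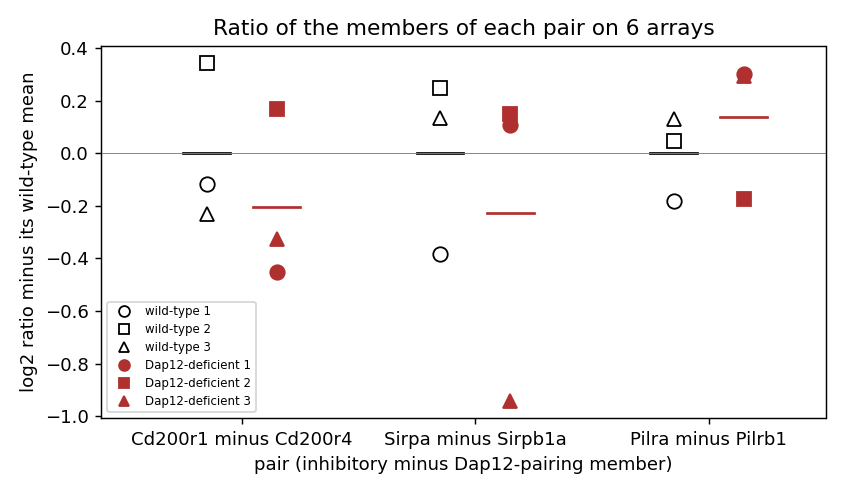
Log2 ratio of the inhibitory to the Dap12-pairing member of each pair, relative to its wild-type mean (y axis), on 3 wild-type (open) and 3 Dap12-deficient arrays (filled), with group means as lines. The groups overlap in each pair, and Dap12-deficient array 3 stands at -0.94 for Sirpa minus Sirpb1a.

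Partners of the inhibitory receptors were read from a list of 12 phosphatases, adaptors and scaffolds, all measured. None passed in either direction over all probe sets, with 2 genes higher, 10 lower and a median of -0.15 for the log2 difference, against -0.033 over the 12875 genes with a tested probe set, of which 0.0155% passed. Ptpn6, the phosphatase SHP-1 that binds ITIMs, gave 617, 810.4 and 612 in wild type against 414, 549 and 374 in Dap12 deficiency. Its arrays did not overlap, with a log2 difference of -0.60 (limma unadjusted p = 0.0181, adjusted p = 0.375). Csk, a kinase that restrains Src family kinases, gave 103, 203 and 161 against 57.3, 138 and 45.6, which overlapped, with a log2 difference of -0.91 (adjusted p = 0.398). Crkl, an adaptor of the Crk family, lay above wild-type on all 3 arrays, with 188, 219 and 161 against 285, 264 and 285 and a log2 difference of 0.53 (adjusted p = 0.385). Inpp5d, the lipid phosphatase SHIP-1, had -0.38 (adjusted p = 0.632). The phosphatase SHP-2 (Ptpn11) had -0.12, and the Cd200r1 adaptors Dok1 and Dok2 had -0.21 and 0.022. Of the 12875 genes, each by its brightest tested probe set, 16.4% had groups that did not overlap, and here it was 2 of 12. A limma unadjusted p under 0.05 was reached by 9.63% of these genes and by 3 of the 12.

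On the activating side, 12 of 16 listed kinases and adaptors downstream of Dap12 were tested, 7 of them higher and 5 lower, with a median of 0.098 for the log2 difference and none past the threshold. Btk, a Tec family kinase, gave 342, 278 and 239 in wild type against 206, 211 and 157 in Dap12 deficiency, without overlap, as did 1 other of the 12, Lat2 (log2 difference of Btk -0.54, limma adjusted p = 0.414). Over all 12875 genes 16.4% had groups that did not overlap. Pik3cd, a catalytic subunit of phosphoinositide 3-kinase, had 0.42 (adjusted p = 0.560), the signalling protein Vav3 0.32 (adjusted p = 0.657), and the adaptor Blnk 0.37 (adjusted p = 0.664). Syk itself had -0.12 (adjusted p = 0.866).

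Other ligands of these receptors were measured for 8 genes, of which 6 could be tested, 3 higher and 3 lower, with a median of 0.0094 and none past the threshold. Thbs1, thrombospondin 1, a secreted ligand of Cd47, gave 48.6, 74.2 and 128 in wild type against 495, 141 and 218 in Dap12 deficiency. All Dap12-deficient signals were above all wild-type signals, although array 2 exceeded the highest wild-type signal only slightly. Thbs1 was the only 1 of the 6 without overlap and the only 1 at a limma unadjusted p under 0.05. Over all 12875 genes these shares were 16.4% and 9.63%. The log2 difference was 1.50 (unadjusted p = 0.00419, adjusted p = 0.335 in limma). Thbs2 had 0.19. The Pilr ligand genes Npdc1 and Pianp had -0.40 and 0.19, Cd99, another Pilr ligand in mouse, -0.17 and its relative Cd99l2 -0.19, with adjusted p from 0.597 to 0.866. The surfactant proteins Sftpd and Sftpa1, which bind Sirpa, were too dim to test, at 2.20 to 8.39 and 1.42 to 5.41 in wild type against 2.58 to 14.5 and 0.942 to 1.74 in Dap12 deficiency.

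**Figure D5:**
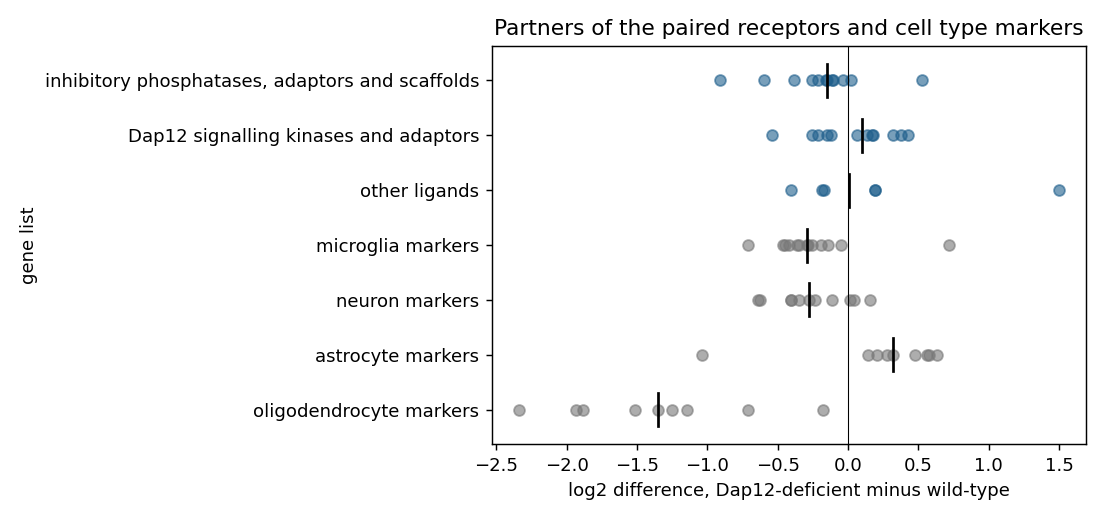
Log2 difference between Dap12-deficient and wild-type cultures (x axis) for each tested gene (dots) of 3 partner lists (blue) and 4 cell type marker lists (grey), with the list median as a black line. The partner lists centre at -0.15, 0.098 and 0.0094, with Thbs1 the point at 1.50, and the oligodendrocyte markers centre at -1.35.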

How the data were processed

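Per the labels' protocols, RNA was purified with Trizol and RNeasy, amplified over a pair of cycles and labelled with biotin. The deposited values are linear intensity values of 6 arrays made with GCOS, per the submitters' processing notes; how probes were summarised is not stated. The mean after leaving out the lowest and highest 2% was equal on all arrays.

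Genes were named from the platform annotation where it gives 1 symbol (34945 probe sets). Probe sets with a mean at or above the 40th percentile (signal 8.51) were tested on log2(signal + 16), which understates differences of dim genes, with limma 3.58.1 in R 4.3.3 (eBayes with trend, two-sided, Benjamini-Hochberg over 27022 probe sets, 64 controls left out). No 2 arrays shared values. Pairs were tested by exact permutation. Alternatives were other pseudocounts (1, 64), normalizations, filters, variance models, array weights, covariates, probe set choices and leaving out each array. Promoters came from RefSeq, aligned with Biopython 1.88. The number of arrays limits precision.

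Members and lists were chosen with earlier results of these data known. The genes named were all members, Tyrobp, all other ligands, the relatives with a probe set, and of each partner list the 4 genes with the smallest p; Ptpn11, Dok1, Dok2 and Syk were named for their roles, and Lat2 for arrays that did not overlap, after their values were seen. Also named were the lymphocyte markers with a probe set, the genes of the Y-linked and myelin terms, and the closest genes by pattern. Some listed genes were not analysed here. The steps were tested on simulated data.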

Additional observations from a re-analysis of the deposited data

How the results depend on the processing

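No member passed under any of the 21 alternatives, and the smallest adjusted p of a member was 0.193 over the 14 of them with values per probe set. Over all probe sets 2 passed in the main fit. With the common median, with eBayes without trend, or without probe sets ending in _x_at or _s_at, 3 passed. With array weights or with 1 probe set per gene it was 4. It was 11 with the sex term (Y-linked genes Eif2s3y, Kdm5d, Uty) and 5 with the myelin term (Mbp, Mobp, Mog, Mag and Ugt8a). When 1 array was left out 2 to 172 passed, 15 without Dap12-deficient replicate 1 and 172 without replicate 2. Log2 differences of single member probe sets kept their direction in 167 of 196 recalculations and turned in 29; the cause was not tested. Cd200 turned to -0.018 (quantile), -0.066 (common median) and -0.0073 (sex term), and ranged from -0.023 to 0.17 with 1 array left out. Cd200r1 (1439703_at) turned to -0.030, -0.11, -0.0015 (cyclic loess) and -0.67 (sex term), range -0.15 to 0.16. Cd200r4 turned to -0.043 (common median) and -1.65 (sex term), range -0.25 to 0.28, and Sirpb1a to 0.46 (sex term), range -0.18 to 0.053. With the myelin term Cd47 (1419554_at) turned to 0.40, Cd200r1 (1422191_at) to 0.37, Pilra to -0.16 and Pilrb1 to -0.36, and Cd200r4 moved to 0.85 without turning. With the sex term Cd47 moved to -2.12 (1419554_at), -1.24 (1449507_a_at) and -0.82 (1428187_at), Cd200r1 (1422191_at) to -1.46, Sirpa to -0.88, -0.39 and -0.69, Pilra to 1.16 and Pilrb1 to 0.98, with SEs of 0.53 to 0.82 over all tested members. The sex term did not overlap between the groups, so its part and that of Dap12 deficiency cannot be told apart. With 1 array left out Cd47 (1419554_at), Cd200r1 (1422191_at), Pilra and Pilrb1 ranged from -0.54 to 0.054, -0.33 to 0.13, 0.084 to 0.47 and -0.072 to 0.31, Cd47 (1449507_a_at) from -0.47 to 0.099 and Sirpa (1448534_at) from -0.32 to 0.014. The pair differences ranged from -0.39 to -0.031 (Cd200r1 and Cd200r4), -0.42 to 0.13 (Sirpa and Sirpb1a) and 0.050 to 0.30 (Pilra and Pilrb1). No paired analysis was possible because the labels share no replicate numbers between the groups. Dim probe sets, such as Cd47 1430997_at, lie where the pseudocount shrinks differences.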

Other observations

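A probe set annotated to Sirpb1a together with its near-identical relatives Sirpb1b and Sirpb1c (1448025_at) was not counted among the members, since it names several genes. It gave 53.2, 32.3 and 32.6 on wild-type arrays and 42.4, 39.7 and 67.9 on Dap12-deficient arrays, with a log2 difference of 0.25 (limma adjusted p = 0.730). Its highest signal was on Dap12-deficient array 3, as for Sirpb1a alone, and the groups overlapped. Cd200r3, a relative of Cd200r4 known from mast cells and basophils, was too dim to test, at 1.44 to 4.58 in wild-type and 0.385 to 14.4 in Dap12-deficient cultures on its brighter probe set. The relatives Cd200r2, Sirpd and Pilrb2 were not analysed here.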
